A study of Mus musculus with 25 samples.

Results

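Gene expression in 3T3-L1 adipocytes fed CLA was compared with that in adipocytes fed LA, the control, 24 h into the treatment, on 3 CLA and 3 LA arrays out of the 25 arrays of the series. The 6 arrays were chosen by their labels alone, and each CLA array was paired with the LA array of the same replicate number. 3T3-L1 is a mouse cell line that grows as preadipocytes, which resemble fibroblasts, and is differentiated into fat cells in culture, so every array holds RNA of 1 cell line and none holds adipose tissue. The labels give only the abbreviations, which fat cell studies commonly use for conjugated linoleic acid (CLA) and linoleic acid (LA). Which isomer was fed, at what dose and at which stage of differentiation, the labels do not say. The other 19 arrays hold the same treatments at 4, 8 and 12 h, with 2 CLA and 3 LA arrays at 4 h, 3 of each at 8 h and 4 of each at 12 h. Total RNA was extracted with Trizol, labelled as biotinylated cRNA and hybridised to 1-colour Affymetrix arrays, and 1 probe set was kept for each of 13596 genes.

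A fat cell takes up glucose and fatty acids under insulin, makes new fatty acids from acetyl-CoA, joins them to glycerol and stores the triglyceride in a droplet coated with proteins of the perilipin and CIDE families. The nuclear receptor PPARgamma and the factor C/EBPalpha hold this programme on, and mitochondria supply the citrate and energy for it. NRF2 and ATF4 are transcription factors that raise antioxidant genes under oxidative stress and amino acid and stress genes when translation initiation is curbed.

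The 6 arrays had mean deposited intensities of 105.7 to 140.7 for CLA and 104.4 to 149.2 for LA. The ratio of the actin control probe sets at the 3' end to those at the 5' end, a sign of RNA degradation or short cRNA, was 3.27, 1.54 and 1.56 in the CLA arrays and 3.32, 1.64 and 1.61 in the LA arrays, so the first pair stood apart from the others and the treatments did not. After subtraction of the treatment means, arrays of the same number correlated with each other across genes (r = 0.714, 0.662 and 0.708 for numbers 1 to 3). Arrays of different numbers had r between -0.225 and -0.444. Deviations from a treatment mean sum to 0, so positive values for the same number force negative ones among the others. Once the mean of each gene was subtracted, the pair took 62.3% of the variance between the 6 arrays and the treatment 26.3%. These shares are not adjusted for there being more pairs than treatments. The nature of the pairs (a day, a culture or a batch of arrays) is not given in the labels.

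Throughout, a level is a quantile-normalised intensity on the linear scale, listed in the order of replicates 1, 2 and 3, and a difference is CLA minus LA of log2(intensity + 32), which understates the change of dim genes. Negative intensities were set to 0. A pair of limma fits with the pair as a block are given side by side. One used all 25 arrays, and the other used the 14 arrays of 12 and 24 h. Arrays of the same number, compared as above, had r = -0.43 and 0.561 at 4 h and 0.609, 0.295 and 0.152 at 8 h. The 2 CLA arrays of 4 h mirror each other after subtraction of their mean. The values at 4 h are therefore not independent and say little about the pairing there. At 12 h the values ran from 0.456 to 0.862. The actin ratio of the LA array of replicate 1 at 4 h was 8.11. The LA array of replicate 3 at 4 h had no CLA partner and adds nothing to the effects. Differences are the same in both fits and their errors are not: the median standard error was 0.18 in the 25-array fit and 0.13 in the 14-array fit. Errors given with ± are standard errors of the 25-array fit over 3 pairs. The words rose and fell are used only for an adjusted p under 0.05 (Benjamini-Hochberg over 13596 genes) in the fit named beside them. P-values rest on the spread of CLA minus LA differences between pairs, pooled over the times in the fit and moderated across genes. The spread between pairs in level is removed by the block. The labels call the arrays biological replicates.

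Fewer genes rose than fell at 24 h. In the 25-array fit 89 of 13596 genes passed (0.655%), of which 7 rose (0.0515%) and 82 fell (0.603%). In the 14-array fit 746 passed (5.49%), 195 upward (1.43%) and 551 downward (4.05%), and all 89 genes were among them. A fit to the 6 arrays of 24 h alone called 6.17%, with 1.96% upward and 4.21% downward. For single genes below, this 6-array fit is quoted only where a gene passed in it and missed both other fits. The key genes Asns, Ddit3, Il6, Insr, Irs1, Lpl and Srebf1 did not pass in it. Their adjusted p in the 6-array fit was 0.401, 0.542, 0.28, 0.1, 0.343, 0.205 and 0.153. All 89 had 1 sign in the 3 pairs and 80 had CLA and LA arrays that did not overlap, while over all genes tested 721 lay wholly above LA (5.3%) and 975 wholly below it (7.17%). The 89 genes were called on these same pairs, so their shared sign and separation follow largely from that choice. The median difference of all genes was 0.01. At an unadjusted p under 0.05 the 25-array fit had 518 of the 13596 genes higher and 890 lower. Counts of lists at that level, given below, are to be read against these. The calls depended on each pair: the 25-array fit called 2 genes higher and 29 lower without pair 1, 0 and 4 without pair 2 and 0 and 5 without pair 3, and 4 genes passed in each of these, namely Thrsp, Mrap, Camp and Tmem120a, all lower under CLA. The 14-array fit called 199 higher and 431 lower without pair 1, 13 and 89 without pair 2 and 57 and 158 without pair 3, and 95 genes passed in each of them, 84 of them lower under CLA. Beside the counts of lists in the 14-array fit stand below the same counts, or the calls that were lost, without each pair.

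**Figure D1:**
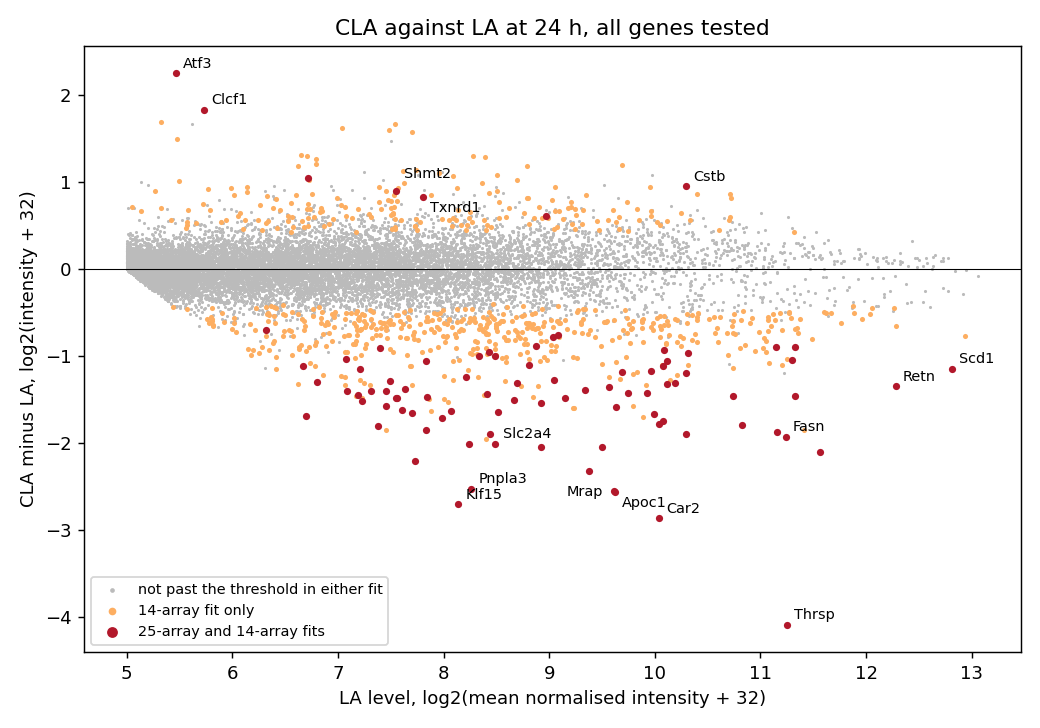
Difference CLA minus LA at 24 h on the log2(intensity + 32) scale (vertical) against the LA level on the same scale (horizontal), 1 point per gene for 13596 genes. Red points passed in the 25-array and the 14-array fits, orange points in the 14-array fit only; 82 of the 89 red points lie below 0, and Thrsp is the lowest at -4.09.

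Genes of fatty acid synthesis were led by the 3 lipogenic genes Thrsp, Pnpla3 and Fasn. Thrsp, a nuclear protein that promotes lipogenic transcription, had levels of 30.8, 169 and 67.04 under CLA, against 573, 4364 and 2273 under LA. Each CLA array lay below every LA array, and the LA arrays themselves spanned a wide range. The difference of -4.09 ± 0.35 was the largest of all genes tested (adjusted p = 0.000465 in the 25-array fit and 6.47e-05 in the 14-array fit), a 17.00-fold lower value on the offset scale. Other probe sets annotated to the gene ranged from -3.56 to 0.04, so at least 1 of them did not follow. Fasn, the fatty acid synthase, had 668, 752 and 311 under CLA, against 1652, 4033 and 1475 under LA, and fell in both fits with a difference of -1.93 ± 0.31 (adjusted p = 0.0152 in the 25-array fit and 0.00142 in the 14-array fit). Its groups did not overlap. The LA array of replicate 2 was the highest for both genes. Scd1, the desaturase that makes oleate from stearate, stood at 3618, 4352 and 2016 under CLA, against 5498, 8783 and 7176 under LA. At this probe set it fell by less, with a difference of -1.14 ± 0.23 (adjusted p = 0.046 in the 25-array fit and 0.00874 in the 14-array fit). The LA level of replicate 2 lay near the top of the range that quantile normalisation assigns. Another probe set of Scd1 differed by -1.79, so the smaller fall may not hold for the gene.

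Pnpla3, a lipase-like protein of the droplet surface, had 22.3, 12.2 and 0.161 under CLA, against 209, 541 and 74.3 under LA. It differed by -2.52 ± 0.47 and fell in both fits (adjusted p = 0.0337 in the 25-array fit and 0.00218 in the 14-array fit). Acaca, the acetyl-CoA carboxylase of the committed step, differed by -0.97 ± 0.23 and Nr1h3, the oxysterol receptor LXRalpha, by -0.93 ± 0.29. Both fell in the 14-array fit only (adjusted p = 0.00894 and 0.00246, against 0.091 and 0.212 in the 25-array fit). Genes named without a call in the 25-array fit, other than a fixed set of key genes, were chosen after their values were seen, here and below. The lipogenic factors did not all pass: Mlxipl, the carbohydrate-responsive factor ChREBP, was listed at 0 in all CLA arrays and at 33.1, 99.5 and 8.55 in the LA arrays, with adjusted p = 0.181 and 0.0621 in the 25-array and 14-array fits, and Srebf1, the sterol-regulated factor SREBP-1, differed by -0.37 ± 0.23 (adjusted p = 0.688 in the 25-array fit and 0.177 in the 14-array fit). Of 20 genes of the list 4 fell in the 25-array fit and 6 in the 14-array fit (8, 4 and 5 without pair 1, pair 2 and pair 3), none rose in either, and the median was -0.47. Elovl6, the elongase of palmitate, differed the other way, by 0.57 ± 0.28 (adjusted p = 0.519 in the 25-array fit, 0.119 in the 14-array fit and 0.0333 in the 6-array fit), and Acly, the enzyme that releases acetyl-CoA from citrate, by -0.17 ± 0.20 (adjusted p = 0.924 in the 25-array fit and 0.612 in the 14-array fit). Of the 20 genes 14 were lower in all 3 pairs, against 22.4% of all genes tested.

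**Figure D2:**
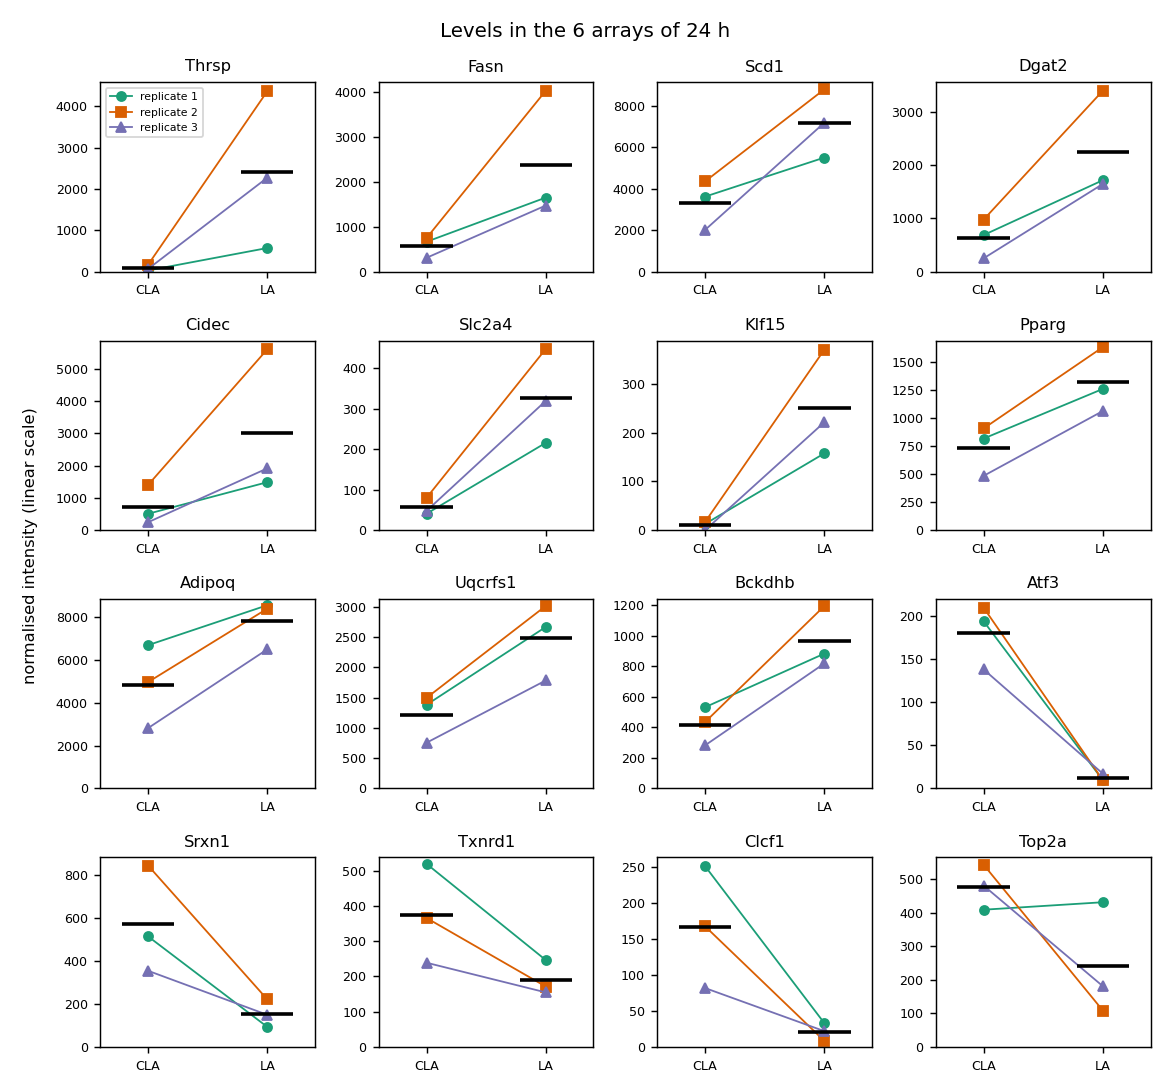
Normalised intensity (linear axis from 0) of 16 genes in the 3 CLA arrays (left of each panel) and the 3 LA arrays (right) of 24 h; lines join arrays of the same replicate number and black bars are means. All 3 lines fall towards CLA for the first 11 genes; for Atf3, Srxn1, Txnrd1 and Clcf1 all 3 rise, and for Top2a the line of replicate 1 runs against the others.

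Most genes of triglyceride assembly and of the droplet coat and lipolysis list that passed were lower. Of 12 genes of triglyceride synthesis 2 fell in the 25-array fit, and in the 14-array fit 8 fell (8, 3 and 2 without pair 1, pair 2 and pair 3) and none rose, with a median of -0.92. Dgat2, the acyltransferase of the last step, had 689, 979 and 252 under CLA, against 1718, 3399 and 1647 under LA, and fell with a difference of -1.87 ± 0.38 (adjusted p = 0.0477 in the 25-array fit and 0.00423 in the 14-array fit). CLA and LA arrays did not overlap. Gpat3, an acyltransferase of the first step, had 610.1, 221 and 80.01 under CLA, against 1605, 1054 and 291 under LA, and fell by a similar amount, -1.66 ± 0.28 (adjusted p = 0.0177 in the 25-array fit and 0.000433 in the 14-array fit). Its groups overlapped, since both arrays of replicate 1 were several times brighter than those of replicate 3, but it was lower in each pair. Gpd1, which makes glycerol 3-phosphate, differed by -1.85, Lpin1, a phosphatidate phosphatase, by -1.59, and Agpat2, the acyltransferase mutated in a human lipodystrophy, by -1.14. All of these 3 fell in the 14-array fit (adjusted p = 0.00976, 0.00212 and 0.0149) and had adjusted p = 0.091, 0.0642 and 0.237 in the 25-array fit. Lpin2, a relative of Lpin1, differed the other way, by 0.47 ± 0.20, was higher in all 3 pairs with no overlap and did not pass (adjusted p = 0.4 in the 25-array fit and 0.0743 in the 14-array fit).

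Among 16 genes of the droplet coat and lipolysis 6 fell in the 25-array fit, and 11 fell (8, 6 and 7 without pair 1, pair 2 and pair 3) and 1 rose in the 14-array fit, with a median of -0.85. Cidec, which fuses droplets into a single large one, had 506, 1399 and 244 under CLA, against 1485, 5601 and 1913 under LA. All CLA arrays were below all LA arrays, and Cidec fell with a difference of -2.10 ± 0.34 (adjusted p = 0.0152 in the 25-array fit and 0.000747 in the 14-array fit). Bscl2, which encodes seipin, a protein of the contact between droplet and endoplasmic reticulum, differed by -1.51 ± 0.28 and also fell in both fits (adjusted p = 0.0342 in the 25-array fit and 0.000275 in the 14-array fit). Genes of fat breakdown lay on the same side. Mgll, the monoglyceride lipase, had 33.6, 52.8 and 13.8 under CLA, against 148, 264 and 118 under LA. It differed by -1.66 ± 0.24 and fell in both fits (adjusted p = 0.0109 in the 25-array fit and 0.000958 in the 14-array fit). G0s2, which inhibits the first lipase, fell as well, with levels of 651, 510.5 and 352 under CLA, against 1782, 1986 and 1566 under LA, and a difference of -1.79 ± 0.29 (adjusted p = 0.0152 in the 25-array fit and 0.00227 in the 14-array fit). Pnpla2, the first lipase ATGL, and Lipe, the hormone-sensitive lipase, differed by -1.08 ± 0.30 and -1.18 ± 0.42 and fell in the 14-array fit only (adjusted p = 0.00684 and 0.0173, against 0.148 and 0.289). The gene that rose was Plin2, a droplet coat protein found in most cell types. Its levels were 2525, 2712 and 2208 under CLA, against 1208, 1867 and 1874 under LA, its groups did not overlap, and it rose in the 14-array fit alone (0.60, adjusted p = 0.0408, against 0.524 in the 25-array fit), a call that was lost when any 1 pair was left out. The related Plin3 and Plin4 differed by 0.20 ± 0.17 and 0.04 ± 0.24 and passed in neither fit (adjusted p = 0.824 and 0.998 in the 25-array fit, and 0.52 and 0.901 in the 14-array fit). Plin1, the perilipin of the mature adipocyte, was not tested because no probe set that passed the filter names it alone.

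Transcripts that mark the adipocyte were lower to very different degrees. Of 23 genes 6 fell in the 25-array fit and 16 in the 14-array fit (14, 8 and 9 without pair 1, pair 2 and pair 3), and none rose in either. Their median was -1.08, and 18 of 23 were lower in all 3 pairs. Klf15, a Kruppel-like factor that supports Slc2a4 and amino acid breakdown, had 12.7, 16.9 and 0 under CLA, against 158, 370.4 and 221 under LA. It lay near the background in every CLA array and fell with a difference of -2.70 ± 0.34 (adjusted p = 0.00576 in the 25-array fit and 0.000227 in the 14-array fit). Pparg had 819, 909.8 and 486 under CLA, against 1263, 1637 and 1066 under LA, with no overlap, and Cebpa had 300.1, 912 and 219 under CLA, against 700.4, 1799.8 and 798 under LA, with overlap, since the arrays of replicate 2 were the highest of each group. Both factors fell in the 14-array fit, with differences of -0.84 ± 0.21 (adjusted p = 0.00459) and -1.27 ± 0.31 (adjusted p = 0.00272), and had adjusted p = 0.115 and 0.0928 in the 25-array fit. Cebpb, which acts before them in differentiation, differed by -0.17 ± 0.20 (adjusted p = 0.918 in the 25-array fit and 0.607 in the 14-array fit). Fabp4, the fatty acid binding protein aP2, stood at 8783, 9342 and 6289.6 under CLA, against 8783, 9342 and 7393 under LA. Those levels were equal within pairs 1 and 2, at the top of the range that quantile normalisation assigns, and the difference was -0.08 ± 0.12 (adjusted p = 0.964 in the 25-array fit and 0.775 in the 14-array fit). Lpl, the lipoprotein lipase, differed by -0.24 ± 0.15 (adjusted p = 0.665 in the 25-array fit and 0.223 in the 14-array fit). In a culture, fewer fat cells and less RNA per fat cell cannot be told apart by these levels.

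Secreted adipocyte products split. Retn, which encodes resistin, had 2616, 2023 and 1345 under CLA, against 4596, 5554 and 4685 under LA, with every CLA array below every LA array. Its difference was -1.34 ± 0.22, a fall in both fits (adjusted p = 0.0152 in the 25-array fit and 0.00136 in the 14-array fit). Adipoq, adiponectin, had 6672, 4953 and 2810.3 under CLA, against 8532, 8371 and 6476 under LA, and fell in the 14-array fit (-0.77 ± 0.20, adjusted p = 0.0228, against 0.115 in the 25-array fit). The highest CLA array lay above the lowest LA array, although each pair was lower. Angptl4, a secreted inhibitor of lipoprotein lipase and a target of PPAR receptors, had 547, 1071 and 1359 under CLA, against 231, 475 and 525 under LA. Its groups did not overlap, and it rose in the 14-array fit (1.19 ± 0.26, adjusted p = 0.00381, against 0.0632), and did so when any 1 pair was left out. Apln, which encodes apelin, and Igf1 fell in that fit (-1.44 and -1.05, adjusted p = 0.00211 and 0.00488, against 0.0728 and 0.437 in the 25-array fit). Of 18 such genes 1 fell in the 25-array fit, and 4 fell (6, 2 and 3 without pair 1, pair 2 and pair 3) and 1 rose in the 14-array fit, and the median was -0.23. Lep, leptin, was listed at 0 in 5 of the 6 arrays.

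Receptors for metabolites were among the lower genes. Of 19 hormone and growth factor receptors 2 fell in the 25-array fit and 5 in the 14-array fit (5, 4 and 4 without pair 1, pair 2 and pair 3), all of them receptors for fatty acids, lactate, nicotinate or FGF21. Klb, the FGF21 co-receptor, had 29.2, 10.5 and 2.87 under CLA, against 167, 239 and 133 under LA, with no overlap, and fell with a difference of -2.21 ± 0.39 (adjusted p = 0.0258 in the 25-array fit and 0.00218 in the 14-array fit). Ffar2, a receptor for short-chain fatty acids, had 49.2, 36.4 and 19.04 under CLA, against 179, 193 and 98.8 under LA. Its difference was -1.48 ± 0.29, a fall in both fits (adjusted p = 0.0409 in the 25-array fit and 0.00195 in the 14-array fit). Ffar4, a receptor for long-chain fatty acids, Hcar1, the lactate receptor, and Hcar2, the nicotinate receptor, fell in the 14-array fit (-1.85, -0.93 and -1.32, adjusted p = 0.0104, 0.00158 and 0.000436, against 0.073, 0.0586 and 0.08). The groups of these 3 did not overlap, and their CLA levels reached at most 19.4. Among the factors of the PPAR, RXR and C/EBP list, 4 of 18 fell in the 14-array fit (Nr1h3, Cebpa, Pparg and the corepressor Nrip1, 3, 2 and 2 without pair 1, pair 2 and pair 3) and none passed in the 25-array fit, where 4 were lower and 0 higher at an unadjusted p under 0.05.

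Further genes that fat cells express fell in the 25-array fit, all but Tmem120b below among its 15 largest falls. Mrap, the accessory protein that brings melanocortin receptors to the surface, had 74.5, 165 and 57.9 under CLA, against 428, 1182 and 644 under LA. Every CLA array lay below every LA array, and the gene fell with a difference of -2.55 ± 0.27 (adjusted p = 0.00139 in the 25-array fit and 6.47e-05 in the 14-array fit). Adig, adipogenin, a small membrane protein of fat cells, had 165, 116 and 43.2 under CLA, against 594, 838 and 462 under LA, with no overlap. It differed by -2.31 ± 0.36 and fell in both fits (adjusted p = 0.015 in the 25-array fit and 0.000227 in the 14-array fit). Tmem120b, a nuclear envelope protein named in the adipocyte list, fell with a difference of -1.63 ± 0.24 (adjusted p = 0.0109 in the 25-array fit and 0.00102 in the 14-array fit). Apoc1, an apolipoprotein that restrains lipoprotein uptake, had 96.9, 75.4 and 120.5 under CLA, against 479.7, 952 and 839.8 under LA, and fell with a difference of -2.57 ± 0.40 (adjusted p = 0.0151 in the 25-array fit and 0.00028 in the 14-array fit). Its groups lay far apart. Car2, a cytosolic carbonic anhydrase, had 187, 90.9 and 10.7 under CLA, against 1459, 1433 and 169 under LA. It differed by -2.86 ± 0.43 and fell in both fits (adjusted p = 0.0127 in the 25-array fit and 0.00028 in the 14-array fit). Its groups overlapped, because both arrays of replicate 3 were much dimmer than the others of their treatment, yet each pair was lower. Enzymes of amino acid and sulphur metabolism were there too. Gpt, alanine aminotransferase, had 52.5, 68.4 and 50.1 under CLA, against 190.3, 449 and 305 under LA, Gstz1, an isomerase of tyrosine breakdown, had 139, 187 and 100.5 under CLA, against 574, 942 and 560.3 under LA, and Tst, a mitochondrial thiosulfate sulfurtransferase, had 27.96, 51.4 and 23.5 under CLA, against 102, 479 and 232 under LA. None of these 3 overlapped between the treatments. They fell with differences of -1.90 ± 0.27 (adjusted p = 0.0109 in the 25-array fit and 0.000283 in the 14-array fit), -2.05 ± 0.28 (adjusted p = 0.00781 in the 25-array fit and 0.000206 in the 14-array fit) and -2.01 ± 0.32 (adjusted p = 0.0152 in the 25-array fit and 0.00212 in the 14-array fit). Another probe set of Gpt differed by -0.05 and another of Mrap by 0, so these did not follow.

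Mitochondrial genes of energy metabolism were lower in nearly all members by modest amounts. Of 34 subunits of complex I 33 were lower in all 3 pairs, against 22.4% of all genes, and 16 had CLA arrays wholly below LA, against 7.17%. No subunit passed in the 25-array fit of limma (26 were lower and 0 higher at an unadjusted p under 0.05), and 16 fell in the 14-array fit (9, 0 and 1 without pair 1, pair 2 and pair 3). The median was -0.49, and it was -0.36, -0.66 and -0.48 in pairs 1 to 3. Ndufs3, a core subunit, had 1048, 1142 and 815 under CLA, against 1580.1, 2076 and 1446 under LA. Those groups did not overlap, and the gene differed by -0.74 ± 0.17 (adjusted p = 0.087 in the 25-array fit and 0.00558 in the 14-array fit). Of 21 genes of complexes III and IV and cytochrome c, 20 were lower in all 3 pairs, 1 fell in the 25-array fit and 12 in the 14-array fit (10, 1 and 3 without pair 1, pair 2 and pair 3), with a median of -0.56. The 1 was Uqcrfs1, the iron-sulphur protein of complex III. It had 1383, 1497 and 756 under CLA, against 2668, 3015 and 1784 under LA. Its difference was -1.04 ± 0.17, a fall in both fits (adjusted p = 0.0159 in the 25-array fit and 0.00151 in the 14-array fit). Cox7a1, a subunit of cytochrome oxidase of heart, muscle and brown fat, fell in the 14-array fit, with 19.2, 19.6 and 13.7 under CLA, against 48.04, 144 and 144 under LA, and a difference of -1.46 ± 0.39 (adjusted p = 0.00472, against 0.135).

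The TCA cycle stood beside the chain. Of 16 genes 1 fell in the 25-array fit and 12 in the 14-array fit (9, 0 and 1 without pair 1, pair 2 and pair 3), and the median was -0.57. Idh3a, a subunit of isocitrate dehydrogenase, had 1379.5, 1363 and 884 under CLA, against 2219.7, 2552 and 1953 under LA, with no overlap, and fell with a difference of -0.89 ± 0.17 (adjusted p = 0.0337 in the 25-array fit and 0.00808 in the 14-array fit). Sdhb, the iron-sulphur subunit of succinate dehydrogenase, fell in the 14-array fit (-1.03 ± 0.22, adjusted p = 0.00352, against 0.0545). ATP synthase and the mitochondrial ribosome moved less: 5 of 16 subunits (median -0.40, 0, 0 and 0 without pair 1, pair 2 and pair 3) and 8 of 54 ribosomal proteins (median -0.22, 4, 0 and 0 without pair 1, pair 2 and pair 3) fell in the 14-array fit, and none passed in the 25-array fit, where 10 and 16 were lower and 0 higher at an unadjusted p under 0.05. The share of mitochondrial ribosomal proteins that fell, 8 of 54, is to be read against 4.05% of all genes. Regulators of mitochondrial number differed among themselves. Ppargc1b and Ppargc1a, coactivators of mitochondrial genes, fell in the 14-array fit (-0.77 and -0.50, adjusted p = 0.0263 and 0.0371, against 0.115 and 0.35), the related Pprc1 rose (0.61, adjusted p = 0.0297, against 0.137), and Tfam, the packaging factor of mitochondrial DNA, differed by -0.07 ± 0.16 (adjusted p = 0.982 in the 25-array fit and 0.8 in the 14-array fit). None of these 3 calls held when 1 pair was left out, whichever it was.

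Genes that break down branched-chain amino acids were lower by more, in the median, than those of the respiratory chain, the TCA cycle and fatty acid oxidation. Of 19 genes 18 were lower in all 3 pairs, 2 fell in the 25-array fit and 14 in the 14-array fit (12, 1 and 5 without pair 1, pair 2 and pair 3), and the median was -0.83. Bckdhb and Dbt, subunits of the dehydrogenase of branched-chain keto acids, fell in both fits. Bckdhb had 533, 436 and 283 under CLA, against 884, 1196 and 819.7 under LA, and differed by -1.18 ± 0.20 (adjusted p = 0.0258 in the 25-array fit and 0.00409 in the 14-array fit). Dbt had 155, 152 and 70.8 under CLA, against 288, 768 and 308 under LA, and differed by -1.54 ± 0.31 (adjusted p = 0.046 in the 25-array fit and 0.00777 in the 14-array fit). Neither gene had an overlap between the groups. The 2 aminotransferases of the first step went opposite ways in the 14-array fit: Bcat2, the mitochondrial one, fell (-1.33, adjusted p = 0.00352, against 0.287) and Bcat1, the cytosolic one, rose (0.76, adjusted p = 0.0346, against 0.195). Bcat1 had 37.5, 56.5 and 76.7 under CLA, against 15.6, 11.4 and 35.2 under LA, near the low end of the scale, and its call was lost when any 1 pair was left out.

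Genes of fatty acid oxidation were lower in most members. Of 18 mitochondrial genes 2 fell in the 25-array fit, and 12 fell (9, 1 and 1 without pair 1, pair 2 and pair 3) and 1 rose in the 14-array fit, with a median of -0.58. Echs1, the enoyl-CoA hydratase, had 384, 629 and 369 under CLA, against 725, 1475 and 943 under LA. Its difference was -1.11 ± 0.21, a fall in both fits (adjusted p = 0.0354 in the 25-array fit and 0.00158 in the 14-array fit). Decr1, which handles double bonds of polyunsaturated fatty acids, had 599, 504 and 397 under CLA, against 836, 1335 and 1052 under LA. It differed by -1.05 ± 0.21 and fell in both fits (adjusted p = 0.046 in the 25-array fit and 0.00861 in the 14-array fit). Groups did not overlap in either. The rise was that of Cpt1a, the carnitine palmitoyltransferase that admits fatty acids to mitochondria, with 160.2, 147 and 251 under CLA, against 140.3, 78.3 and 77.9 under LA, and a difference of 0.74 ± 0.20 (adjusted p = 0.0329 in the 14-array fit, against 0.13). It passed without pair 1 and did not pass without pair 2 or pair 3. Of 13 peroxisomal genes 12 were lower in all 3 pairs and 6 fell in the 14-array fit (4, 1 and 1 without pair 1, pair 2 and pair 3, median -0.60). None passed in the 25-array fit, where 7 were lower and 0 higher at an unadjusted p under 0.05. Fatty acid uptake and binding, with 13 genes, had a median of -0.12 and 2 falls in the 14-array fit, of Cd36, the fatty acid translocase (-0.57, adjusted p = 0.0489, against 0.516), and Dbi, the acyl-CoA binding protein (-0.57, adjusted p = 0.0238, against 0.216), beside 1 rise, of the acyl-CoA synthetase Acsl5 (0.58, adjusted p = 0.0237, against 0.178). Each of these 3 was lost when 1 pair was left out, whichever it was.

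The transcript of the insulin-regulated glucose transporter was lower under CLA. Slc2a4, which encodes GLUT4, had 40.5, 80.03 and 47.6 under CLA, against 216, 448 and 319 under LA. Every CLA array lay below every LA array, and the gene fell with a difference of -2.004 ± 0.32 (adjusted p = 0.0151 in the 25-array fit and 0.000244 in the 14-array fit). Slc2a1, the transporter GLUT1 of most cells, went the other way without passing, with 699.9, 728 and 582 under CLA, against 284, 368 and 510.3 under LA, and a difference of 0.77 ± 0.29 (adjusted p = 0.32 in the 25-array fit and 0.0721 in the 14-array fit). Pfkfb3, which makes the activator of phosphofructokinase, had 41.9, 47.98 and 4.71 under CLA, against 149.9, 227 and 52.1 under LA, and fell with a difference of -1.40 ± 0.19 (adjusted p = 0.00718 in the 25-array fit and 0.000433 in the 14-array fit). Of 19 genes of glucose uptake and glycolysis 2 fell in the 25-array fit and 8 in the 14-array fit (7, 2 and 3 without pair 1, pair 2 and pair 3), none rose, and the median was -0.40. Hk2, the insulin-responsive hexokinase, was among the 8 (-1.21, adjusted p = 0.00407, against 0.0614).

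Pdhb, a subunit of pyruvate dehydrogenase, had 1876, 1331 and 916 under CLA, against 2626, 3082 and 1888 under LA. It differed by -0.90 ± 0.18 and fell in both fits (adjusted p = 0.0464 in the 25-array fit and 0.00933 in the 14-array fit). It was the 1 of 17 genes of pyruvate handling that fell in the 25-array fit, against 7 in the 14-array fit (5, 0 and 1 without pair 1, pair 2 and pair 3) and a median of -0.67. In insulin signalling 1 gene passed in the 25-array fit. Pde3b, the phosphodiesterase through which insulin lowers cyclic AMP, had 108, 137 and 18.7 under CLA, against 326, 767 and 266 under LA. Its difference was -2.05 ± 0.42, a fall in both fits (adjusted p = 0.0486 in the 25-array fit and 0.00236 in the 14-array fit). Foxo1, a factor that insulin restrains, fell in the 14-array fit (-0.63, adjusted p = 0.0296, against 0.193), a call that was lost when any 1 pair was left out. The other 16 of 18 genes passed in neither fit, with differences of -0.50 ± 0.26 for the receptor Insr (adjusted p = 0.575 in the 25-array fit and 0.131 in the 14-array fit) and -0.27 ± 0.40 for its substrate Irs1 (adjusted p = 0.959 in the 25-array fit and 0.391 in the 14-array fit), and the median was -0.17.

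**Figure D3:**
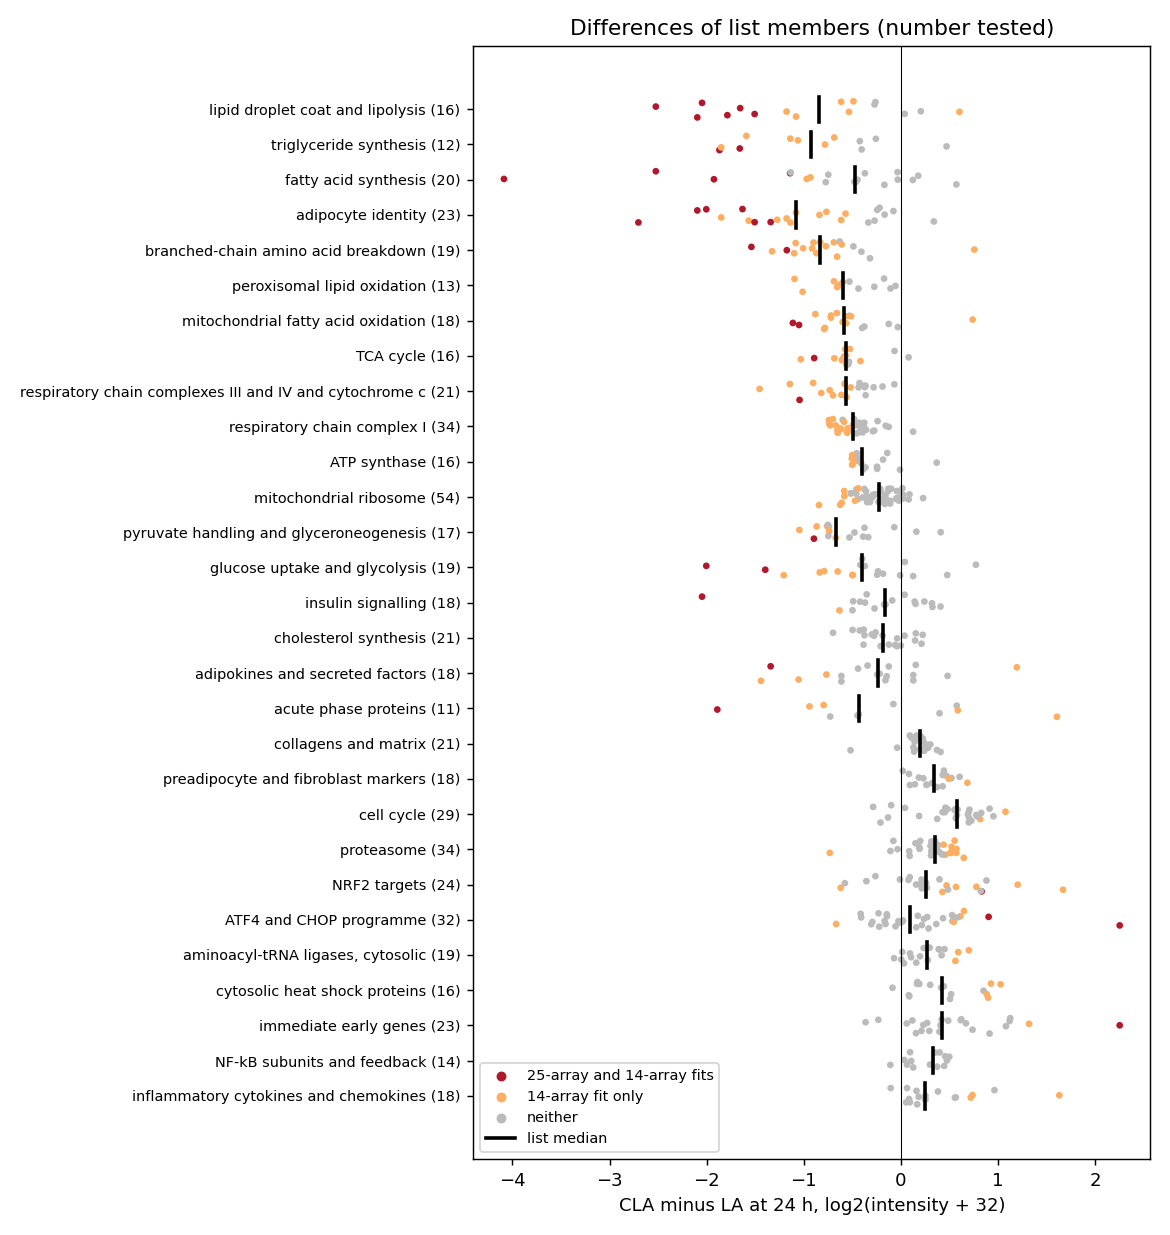
Difference CLA minus LA at 24 h (log2(intensity + 32)) of each tested gene of 29 lists, 1 point per gene, with the number tested in brackets and the list median as a black bar. Lists of fat storage, mitochondria and amino acid breakdown lie left of 0, with medians between -1.08 and -0.22, and those of the proteasome, heat shock proteins and immediate early genes lie right of it, with medians between 0.35 and 0.43.

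Antioxidant genes of the NRF2 list were more often higher than lower. Of 24 genes 1 rose in the 25-array fit, and 7 rose (4, 2 and 6 without pair 1, pair 2 and pair 3) and 1 fell in the 14-array fit, with a median of 0.26. Srxn1, sulfiredoxin, which restores oxidised peroxiredoxins, had 513, 843 and 354 under CLA, against 92.8, 221 and 149 under LA. Its groups did not overlap, and it rose in the 14-array fit with a difference of 1.67 ± 0.38 (adjusted p = 0.00224, against 0.0776 in the 25-array fit). Txnrd1, the cytosolic thioredoxin reductase, had 520.0, 366 and 239 under CLA, against 247, 171 and 155 under LA, with 1 CLA array below 1 LA array of another pair. It was the gene that rose in both fits (0.83 ± 0.16, adjusted p = 0.0447 in the 25-array fit and 0.00789 in the 14-array fit), and other probe sets of it had differences of -0.02 to 0.18. Sqstm1, the autophagy receptor p62, differed by 1.20 ± 0.40, and Gclm, the regulatory subunit of the glutathione-making ligase, by 0.78 ± 0.34. Both rose in the 14-array fit (adjusted p = 0.00151 and 0.00472, against 0.258 and 0.427). Nqo1, the quinone reductase, rose in that fit too, with 99.04, 72.8 and 69.3 under CLA, against 56.02, 33.7 and 41.9 under LA, and a difference of 0.57 ± 0.15 (adjusted p = 0.0265, against 0.135). Hmox1, haem oxygenase, had 443, 743 and 675 under CLA, against 152, 469 and 419 under LA, and missed the threshold in both (0.88 ± 0.46, adjusted p = 0.581 in the 25-array fit and 0.0509 in the 14-array fit), while it passed in the fit to the 6 arrays of 24 h alone (adjusted p = 0.0233). The 1 that fell was Taldo1, an enzyme of the pentose phosphate pathway (-0.62, adjusted p = 0.0364, against 0.243), a call lost without pair 2 and without pair 3.

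NRF2 binds the antioxidant response element, whose core reads TGACNNNGC, and ATF4 binds an element of a C/EBP and an ATF half-site, searched here as TGATGNAA. Both were searched on both strands from 250 bases before to 50 bases after each RefSeq gene start (GRCm38.p6). The first core was present in 6 of the 19 NRF2-list genes that have a promoter in the table (31.6%), against 3781 of 27025 genes (14%), and the second in 7 of 27 genes of the ATF4 list (25.9%), against 1219 of 27025 (4.51%). The 3 promoters below belong to the NRF2-list gene with the largest difference, the NRF2-list gene that passed in both fits and the gene with the largest rise of all. Capitals mark the match to the core, which in each of the 3 reads on the opposite strand. Srxn1 lies at chr2:152105274-152105573 on the plus strand, Txnrd1 at chr10:82858956-82859255 on the plus strand and Atf3 at chr1:191183284-191183583 on the minus strand. A match is a stretch of letters and not a site of binding in these cells. Both lists were drawn up as genes of the NRF2 and ATF4 programmes. A share above that of all genes follows from this choice and is no result of CLA. Of the genes with the first core, Abcc4, Gsta3 and Pgd passed in neither fit, and Gclm, Srxn1 and Txnrd1 passed. Of those with the second, Asns, Chac1, Slc7a11, Trib3 and Vldlr passed in neither, and Atf3 and Nupr1 passed.
Srxn1: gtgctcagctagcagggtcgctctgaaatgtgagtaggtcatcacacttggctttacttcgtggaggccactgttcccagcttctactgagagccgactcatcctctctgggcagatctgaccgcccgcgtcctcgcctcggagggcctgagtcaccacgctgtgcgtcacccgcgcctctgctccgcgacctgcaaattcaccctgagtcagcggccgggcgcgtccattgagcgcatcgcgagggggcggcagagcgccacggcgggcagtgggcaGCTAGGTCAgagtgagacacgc
Txnrd1: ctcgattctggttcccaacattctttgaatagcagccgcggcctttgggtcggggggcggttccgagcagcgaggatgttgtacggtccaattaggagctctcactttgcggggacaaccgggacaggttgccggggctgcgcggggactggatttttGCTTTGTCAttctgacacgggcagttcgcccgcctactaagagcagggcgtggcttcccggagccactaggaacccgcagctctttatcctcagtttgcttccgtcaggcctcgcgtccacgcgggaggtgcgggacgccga
Atf3: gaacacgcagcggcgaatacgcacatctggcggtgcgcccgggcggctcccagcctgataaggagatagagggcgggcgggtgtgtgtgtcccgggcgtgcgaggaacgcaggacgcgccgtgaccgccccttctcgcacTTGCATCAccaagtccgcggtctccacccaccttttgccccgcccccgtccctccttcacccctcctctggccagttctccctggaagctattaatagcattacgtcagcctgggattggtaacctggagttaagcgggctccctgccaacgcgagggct

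Atf3 led the stress genes of the ATF4 and CHOP list. This transcription factor, induced by many stresses, had 194, 209 and 138 under CLA, against 9.64, 9.65 and 17.2 under LA. All 3 CLA arrays lay far above every LA array, and the gene rose with a difference of 2.25 ± 0.44 (adjusted p = 0.0409 in the 25-array fit and 7.47e-05 in the 14-array fit), the largest rise of the 25-array fit. Shmt2, the mitochondrial enzyme that draws one-carbon units from serine, had 219, 359 and 396 under CLA, against 132, 142 and 193 under LA, with no overlap, and rose with a difference of 0.90 ± 0.18 (adjusted p = 0.0486 in the 25-array fit and 0.0032 in the 14-array fit). Atf4 itself had 1105, 1607 and 1642 under CLA, against 583, 1156 and 1165 under LA, and rose in the 14-array fit (0.61 ± 0.25, adjusted p = 0.0127, against 0.396). Its best-known targets did not move together. Asns, asparagine synthetase, differed by 0.17 ± 0.18 (adjusted p = 0.9 in the 25-array fit and 0.475 in the 14-array fit). Ddit3, which encodes CHOP, had 399, 425 and 572 under CLA, against 162, 434 and 696 under LA, higher in pair 1 and lower in pairs 2 and 3, and a difference of 0.28 ± 0.43 (adjusted p = 0.959 in the 25-array fit and 0.58 in the 14-array fit). Trib3, a pseudokinase that CHOP induces, had 115, 167 and 161 under CLA, against 24.9, 387 and 298 under LA, higher in pair 1 and lower in the others, and -0.16 ± 0.61 (adjusted p = 0.995 in the 25-array fit and 0.874 in the 14-array fit). Of 32 genes of the list 2 rose in the 25-array fit, and 5 rose (2, 1 and 2 without pair 1, pair 2 and pair 3) and 1 fell in the 14-array fit, the fall being that of the glutamine transporter Slc1a5 (-0.67, adjusted p = 0.0121, against 0.287) and lost without pair 2 and without pair 3. The list median was 0.09.

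Protein quality control showed small, shared shifts in the cytosol. Of 34 proteasome subunits 28 were higher in all 3 pairs, against 22.7% of all genes, and 16 lay wholly above LA, against 5.3%. In the 14-array fit 10 rose (1, 0 and 1 without pair 1, pair 2 and pair 3) and 1 fell, with a median of 0.35. In the 25-array fit of limma none passed, while 16 were higher and 1 lower at an unadjusted p under 0.05. Psmd11, a subunit of the regulatory lid, had 2269.9, 1604 and 1739 under CLA, against 1379.5, 946 and 1226 under LA, with no overlap, and a difference of 0.65 ± 0.13 (adjusted p = 0.0511 in the 25-array fit and 0.00906 in the 14-array fit). The fall was that of Psma1, a subunit of the core ring, with 1737, 1387 and 1427 under CLA, against 2032, 3340.3 and 2383 under LA, and a difference of -0.73 ± 0.23 (adjusted p = 0.217 in the 25-array fit and 0.0464 in the 14-array fit, lost without pair 2 and without pair 3). Of 16 cytosolic heat shock genes 4 rose in the 14-array fit (3, 1 and 2 without pair 1, pair 2 and pair 3), with a median of 0.43. None passed in the 25-array fit, where 4 were higher and 0 lower at an unadjusted p under 0.05. Hspa1b, an inducible HSP70, had 566, 662 and 703 under CLA, against 350.4, 295 and 346 under LA, with no overlap, and rose in the 14-array fit (0.90 ± 0.23, adjusted p = 0.0194, against 0.127). Chaperones of the endoplasmic reticulum passed in neither fit (0 of 23, with 0 higher and 2 lower at an unadjusted p under 0.05 in the 25-array fit, median 0.12). Of 19 cytosolic aminoacyl-tRNA ligases 3 rose in the 14-array fit (2, 0 and 1 without pair 1, pair 2 and pair 3), none passed in the 25-array fit (5 higher and 0 lower at an unadjusted p under 0.05), and the median was 0.27. Cstb, a cysteine protease inhibitor outside these lists, had 2695, 1833 and 2387 under CLA, against 1254, 736 and 1685 under LA, and rose in both fits (0.95 ± 0.18, adjusted p = 0.0354 in the 25-array fit and 0.00544 in the 14-array fit). Nsfl1c, a cofactor of the segregase p97, rose in both as well (0.61 ± 0.12, adjusted p = 0.046 in the 25-array fit and 0.00777 in the 14-array fit), as did Vstm2a (1.05 ± 0.19, adjusted p = 0.0309 in the 25-array fit and 0.00235 in the 14-array fit).

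Early response genes were still higher at 24 h in part. Of 23 genes 15 were higher in all 3 pairs, 1 rose in the 25-array fit (Atf3) and 2 in the 14-array fit (Atf3 and the ERK-responsive Ier3, 1, 1 and 3 without pair 1, pair 2 and pair 3), and the median was 0.42. Egr1, a zinc finger factor induced within minutes of stimulation, had 3568, 1775 and 1188 under CLA, against 1497, 699 and 717 under LA, and a difference of 1.08 ± 0.32 (adjusted p = 0.191 in the 25-array fit and 0.0532 in the 14-array fit). Fos differed by 0.67 ± 0.24 (adjusted p = 0.303 in the 25-array fit and 0.0789 in the 14-array fit). Both genes were higher in each pair, their groups overlapped, and neither passed in these fits. In the fit to the 6 arrays of 24 h alone both passed (adjusted p = 0.00791 and 0.0411). Dusp1, the phosphatase that switches off p38 and JNK, rose in the 14-array fit (1.30, adjusted p = 0.0329, against 0.307), and Dusp4, a nuclear phosphatase of the same family, fell (-0.89, adjusted p = 0.0116, against 0.307). In that list 2 of 16 rose (0, 0 and 1 without pair 1, pair 2 and pair 3) and 2 fell (2, 0 and 0 without pair 1, pair 2 and pair 3). Of 12 genes of EGF receptor ligands and receptors 1 passed. Nrg4, a ligand of ErbB receptors secreted by fat cells, had 8.66, 19.7 and 11.2 under CLA, against 59.5, 106 and 73.9 under LA, with no overlap, and fell in both fits (-1.29 ± 0.23, adjusted p = 0.0291 in the 25-array fit and 0.0042 in the 14-array fit), though not in the 14-array fit without pair 2. Ereg, epiregulin, had 188, 182 and 48.4 under CLA, against 18.5, 12.7 and 19.9 under LA, also with no overlap, and passed in the 6-array fit (adjusted p = 0.0203) but not in the others (1.67 ± 0.51, adjusted p = 0.208 in the 25-array fit and 0.0527 in the 14-array fit). Ptgs2, the inducible cyclooxygenase, had 92.1, 32.8 and 14.7 under CLA, against 8.63, 4.83 and 1.11 under LA, and likewise did not pass in those 2 (0.97 ± 0.31, adjusted p = 0.217 in the 25-array fit and 0.0563 in the 14-array fit). It passed in the 6-array fit (adjusted p = 0.0325), and in the 25-array fit with an offset of 1 in place of 32 (2.90, adjusted p = 0.0456). An offset of 1 stretches the differences of dim genes. In its list of 13 prostaglandin genes the 14-array fit called 1, a fall of the synthase Ptges2 (-0.83, adjusted p = 0.0138, against 0.303), and 1, 0 and 0 fell without pair 1, pair 2 and pair 3.

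Inflammatory genes showed few calls. Of 18 cytokine and chemokine genes 3 rose in the 14-array fit (Cxcl1, Ccl5 and Ccl7, 0, 1 and 1 without pair 1, pair 2 and pair 3), and none passed in the 25-array fit, where 4 were higher and 0 lower at an unadjusted p under 0.05. The median was 0.25. Cxcl1, a chemokine for neutrophils, had 734, 344 and 133 under CLA, against 192, 50.5 and 54.5 under LA, and a difference of 1.63 ± 0.66 (adjusted p = 0.373 in the 25-array fit and 0.0238 in the 14-array fit). Ccl2, the monocyte chemokine MCP-1, had 279, 87.1 and 53.9 under CLA, against 109, 22.1 and 24.2 under LA, higher in each pair and highest in replicate 1 of both treatments, and passed in the 6-array fit (adjusted p = 0.0106) but not in the others (0.96 ± 0.51, adjusted p = 0.589 in the 25-array fit and 0.0768 in the 14-array fit). Il6, the cytokine interleukin-6, had 22.95, 9.15 and 13.9 under CLA, against 6.88, 10.1 and 5.54 under LA, and did not pass (0.25 ± 0.26, adjusted p = 0.9 in the 25-array fit and 0.422 in the 14-array fit). Of 14 NF-kB subunits and feedback genes none passed in either fit, and 2 were higher and 0 lower at an unadjusted p under 0.05 in the 25-array fit (median 0.33).

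A cytokine and a receptor of the IL-6 family were higher. Clcf1, a ligand of the CNTF receptor, had 251, 167 and 81.5 under CLA, against 32.95, 8.31 and 21.8 under LA, with no overlap, and rose with a difference of 1.83 ± 0.37 (adjusted p = 0.046 in the 25-array fit and 0.00558 in the 14-array fit). Osmr, the receptor subunit for oncostatin M, had 739, 512 and 522 under CLA, against 218, 156 and 155 under LA, with no overlap, and rose in the 14-array fit (1.58 ± 0.39, adjusted p = 0.0106, against 0.106). Socs3, the feedback inhibitor of this signalling, rose in the same fit (0.996 ± 0.25, adjusted p = 0.0151, against 0.106). Clcf1 is not in the IL-6 list, of which 2 of 16 genes rose, Osmr and Socs3 (2, 0 and 0 without pair 1, pair 2 and pair 3). Acute phase proteins went both ways. Orm1, orosomucoid, a plasma glycoprotein that fat cells also make, had 378, 417 and 144 under CLA, against 1229.6, 1712 and 721 under LA, with no overlap, and fell with a difference of -1.89 ± 0.26 (adjusted p = 0.0081 in the 25-array fit and 8.71e-05 in the 14-array fit). Haptoglobin (Hp) and Orm2 fell in the 14-array fit (-0.94 and -0.80, adjusted p = 0.0151 and 0.0329, against 0.181 and 0.181). Serpina3n, an inhibitor of serine proteases, rose in that fit with 89.1, 1434 and 299 under CLA, against 37.4, 357 and 45.00 under LA, and a difference of 1.61 ± 0.36 (adjusted p = 0.00426, against 0.0765), and Cp, ceruloplasmin, rose by 0.58 (adjusted p = 0.0102, against 0.611). Over the list 2 of 11 rose (3, 0 and 0 without pair 1, pair 2 and pair 3) and 3 fell (2, 2 and 1 without pair 1, pair 2 and pair 3) in the 14-array fit, and 1 fell in the 25-array fit.

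Markers of preadipocytes and fibroblasts were all on the higher side and hardly any passed. All 18 tested differed upward, 13 in all 3 pairs, with a median of 0.34 and a largest difference of 0.68. In the 14-array fit 2 rose, the collagen receptor Ddr2 and the mesenchymal factor Prrx1 (1, 0 and 0 without pair 1, pair 2 and pair 3), and none in the 25-array fit, where none had an unadjusted p under 0.05. Collagens and matrix proteins had a median of 0.20 and passed in neither fit (0 of 21, with 0 higher and 1 lower at an unadjusted p under 0.05 in the 25-array fit). Mmp13, a collagenase, had 79.6, 221 and 44.9 under CLA, against 7.57, 8.82 and 7.96 under LA, with no overlap, and rose in the 14-array fit (1.69 ± 0.46, adjusted p = 0.0342, against 0.141), and Adamts1, a secreted protease, rose there too (0.87, adjusted p = 0.0283, against 0.217). Of the 16 metalloproteinases and inhibitors no other passed, and no call was left when any 1 pair was left out.

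Cell cycle genes differed between pairs. The median of 29 genes was -0.22 in pair 1, 1.37 in pair 2 and 0.63 in pair 3, and 0.58 over all. Top2a, the topoisomerase of dividing cells, had 408, 542 and 480.0 under CLA, against 431, 108 and 181 under LA. The LA array of replicate 1 was as bright as the CLA arrays, and the other LA arrays were lower. Top2a and Ccnd1, the cyclin of early G1, rose in the 14-array fit (1.08 and 0.82, adjusted p = 0.0458 and 0.0464, against 0.275 and 0.456). In that fit the number of the 29 that rose was 2 with all pairs and 19, 0 and 0 without pair 1, pair 2 and pair 3. None passed in the 25-array fit, in which 12 were higher and 0 lower at an unadjusted p under 0.05. The first pair was also the one with the high 3' to 5' ratio of actin, and the part of this ratio in the result was not tested.

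**Figure D4:**
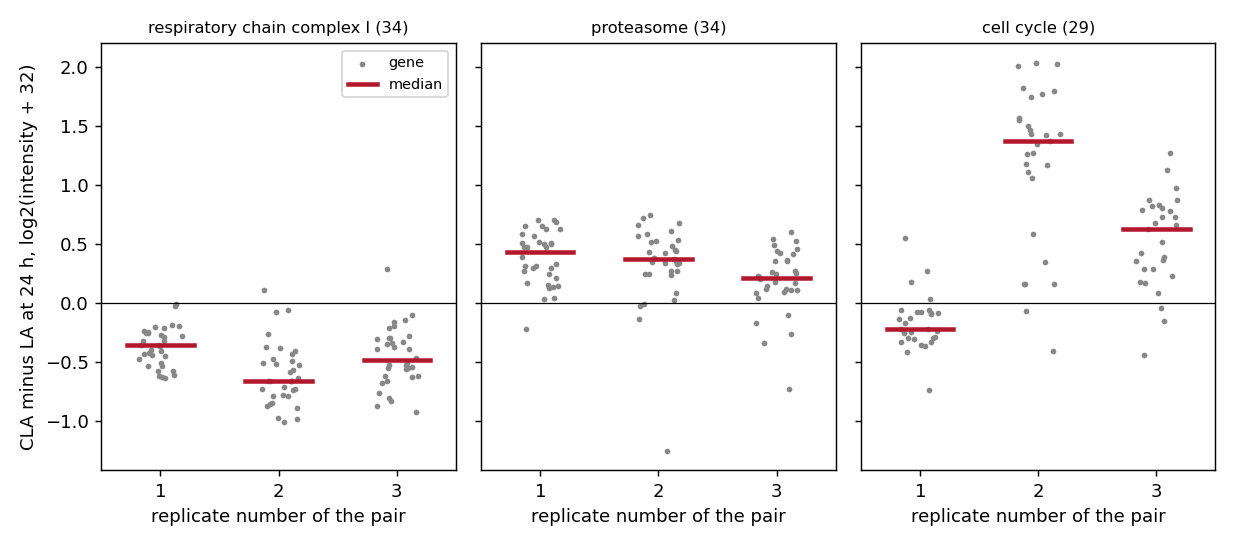
Difference CLA minus LA at 24 h (log2(intensity + 32)) of single genes (grey points) in each of the 3 pairs, with the median (red bar), for 34 subunits of complex I, 34 of the proteasome and 29 cell cycle genes. Complex I medians are -0.36, -0.66 and -0.48, proteasome medians are 0.43, 0.38 and 0.22, and cell cycle medians are -0.22, 1.37 and 0.63, so only the last list changes sign between pairs.

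The labelled cell type was checked against its markers. The 23 adipocyte markers on the arrays had a summed level of 20437 to 34182 in CLA arrays and 38407 to 57121 in LA arrays, and the 21 preadipocyte and fibroblast markers 29605 to 38742 in CLA arrays and 22587 to 34687 in LA arrays, so adipocyte transcripts were present in all 6. Macrophage markers (12) summed to 271 to 380 in CLA arrays and 152 to 233 in LA arrays. Of 9 tested 1 rose in the 14-array fit, the endotoxin co-receptor Cd14 (134, 80.2 and 41.8 under CLA, against 62.7, 21.4 and 14.02 under LA, adjusted p = 0.0141, against 0.151), which is not limited to macrophages, and 1, 1 and 0 rose without pair 1, pair 2 and pair 3. Adgre1, the defining surface protein F4/80, was at 22.7, 17.3 and 16.1 under CLA, against 33.3, 22.04 and 23.2 under LA, and Itgam, Ptprc and Tyrobp did not pass the filter. Endothelial markers (10, of which 3 passed the filter and Pecam1, Kdr and Tek did not) summed to 24 to 33 in CLA arrays and 20 to 40 in LA arrays. Muscle markers (10, of which 5 passed and Myod1 and Myog did not) summed to 29 to 62 in CLA arrays and 70 to 98 in LA arrays. The part of the fibroblast and macrophage markers in the results above was not tested.

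Lists outside these themes had few calls. The genes of cholesterol synthesis passed in neither fit (0 of 21, with 0 higher and 2 lower at an unadjusted p under 0.05 in the 25-array fit, median -0.19). Cpt1b, a muscle form of carnitine palmitoyltransferase, and Ucp1, the uncoupling protein of brown fat, had no single-gene probe set past the filter. Of 17 clock genes 2 fell in the 14-array fit, the output factor Dbp (-0.69, adjusted p = 0.0177, against 0.237) and Per3 (-0.44, adjusted p = 0.0472, against 0.369); 3, 0 and 0 fell without pair 1, pair 2 and pair 3. Of 25 autophagy genes Sqstm1 rose in the 14-array fit (1 rose without each pair), and Bnip3, a hypoxia-induced mitophagy receptor, fell in both fits, with 765, 872 and 896 under CLA, against 1403, 3369.5 and 2818 under LA, and a difference of -1.46 ± 0.23 (adjusted p = 0.0144 in the 25-array fit and 0.00195 in the 14-array fit). Among 12 Kruppel-like factors Klf15 fell and Klf2 rose (0.70, adjusted p = 0.0262 in the 14-array fit, against 0.32); 1 fell without each pair, and 0, 0 and 1 rose without pair 1, pair 2 and pair 3. Of 18 p53 targets 1 rose, Gadd45a (0.67, adjusted p = 0.0359, against 0.35), and 1 fell, Trp53inp1 (-0.69, adjusted p = 0.0325, against 0.276), in the 14-array fit. The rise was lost when any 1 pair was left out, and the fall without pair 2 and without pair 3. Of 9 metallothionein and zinc transporter genes 1 rose in that fit, the metal-binding Mt2 (0.82, adjusted p = 0.0464, against 0.525), and the number was 0, 0 and 1 without pair 1, pair 2 and pair 3.

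The 24 h differences were set against those of the earlier times, each measured on its own CLA and LA arrays. Differences at 4 h rest on 2 pairs, whose arrays had r = -0.43 and 0.561, values that are not independent of each other. Of the 82 genes that fell at 24 h in the 25-array fit, 63 were lower at 4 h, 82 at 8 h and 82 at 12 h, and their median difference was -0.37 at 4 h, -0.89 at 8 h, -0.83 at 12 h and -1.43 at 24 h. Of the 7 that rose, 6 were higher at 4 h, 7 at 8 h and 7 at 12 h. Both sets were chosen by their 24 h values, which favours a larger difference at 24 h. Their medians therefore do not show that the effect grew. For all genes tested the sign at 24 h was the same as that at 4, 8 and 12 h in 49.8%, 66.2% and 67.8%. Adipocyte genes had a median of -0.13 at 4 h, -0.52 at 8 h, -0.58 at 12 h and -1.08 at 24 h. Branched-chain amino acid breakdown had -0.13, -0.33, -0.45 and -0.83. Immediate early genes had 1.10, 1.09, 0.77 and 0.42. The difference between the 24 h and the 12 h effect was tested for every gene and passed for none in either fit of limma (178 and 773 genes had an unadjusted p under 0.05 in the 25-array and the 14-array fit), so no gene is called as larger or smaller at 24 h.

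**Figure D5:**
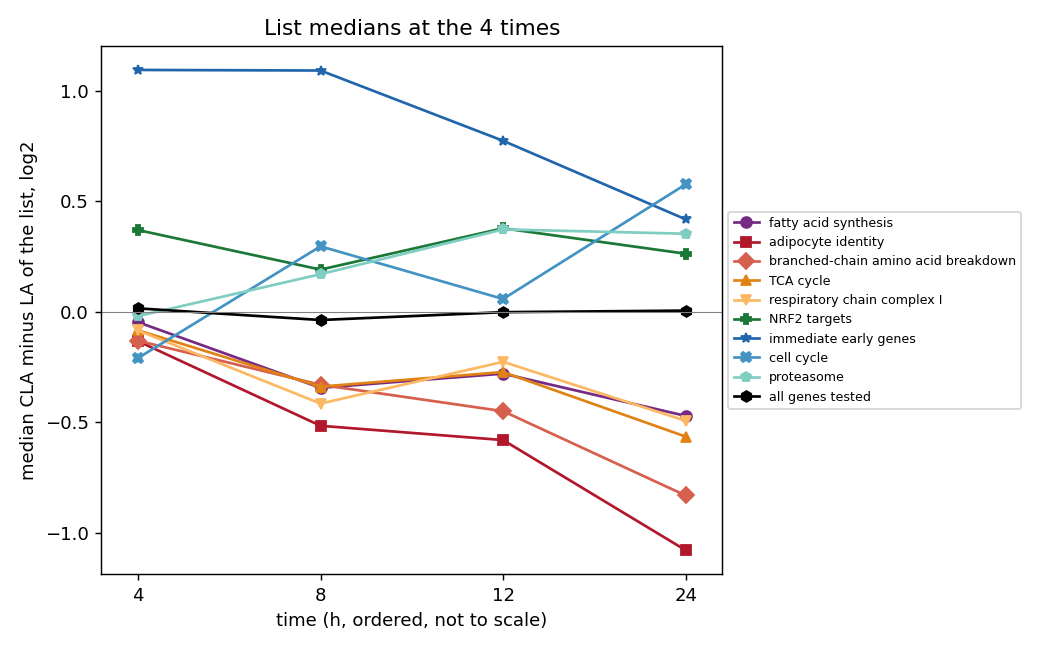
Median difference CLA minus LA (log2(intensity + 32)) of 9 lists and of all genes tested at 4, 8, 12 and 24 h, the times drawn at even spacing. The adipocyte list lies at -0.13, -0.52, -0.58 and -1.08 in order of time and the immediate early list at 1.10, 1.09, 0.77 and 0.42, while all genes stay between -0.04 and 0.02.

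The authors' deposited table of 24 h ratios gives 1 ratio and 1 p-value per probe set and does not name its numerator. Its log2 ratio correlated with the CLA minus LA difference over 3328 probe sets with r = 0.973, so a ratio above 1 is read as higher under CLA. For the probe sets of all 89 called genes the authors' deposited table lay on the same side of 1, and for 81 it gave a p-value under 0.01. Both come from the same arrays, and the direction of the ratio was read from these same differences. The match in side was therefore largely fixed by that reading, and the p-values are no independent support. In the authors' deposited table Thrsp had a ratio of 0.0585, Fasn 0.280, Slc2a4 0.207, Atf3 10.2 and Srxn1 3.30.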

How the data were processed

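Values came from the deposited series table of 45101 probe sets on 25 arrays. Per its values, the authors deposited linear intensity with background subtracted and without scaling between arrays. The software is not given in the sources used here. Negative values were set to 0 after quantile normalisation (limma 3.58.1, R 4.3.3), 32 was added and log2 taken. Of 18194 genes with a probe set of 1 symbol (the brightest over 25 arrays was used), 13596 lay above the array median on at least 3 arrays. The 25-array limma fit (lmFit, eBayes) held a CLA effect per time and a term for each pair of the same time and replicate number, with 8 residual degrees of freedom. The fits to 14 and 6 arrays had 5 and 2. The pair was used as a block because the comparison was defined as paired by replicate number. Every same-number correlation at 24 h exceeded that of the other numbers. A simulation of this comparison covered 13596 genes. It recovered 70 of 100 changes of size 1 and 95 of 100 of size 2 on the log2 scale, with 7 false calls. Its residuals were independent and normal with a single spread per gene, and both arrays of a pair shared the pair effect fully. These rates need not hold for the real arrays.

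Named genes were the 15 largest rises and falls past the threshold with 1 sign in all pairs, up to 4 such genes per list, and 36 key genes, of which 31 were tested. Of 989 entries in 47 lists 873 were tested. The members of the comparison, the lists, the offset and the key genes were chosen with earlier results of these data known. The authors' deposited 24 h table holds a ratio and a p-value per probe set, made with Rosetta Resolver per its name. It was used only to compare direction, ratios and p-values, and its 2 columns of values without a sample or group name were not used. Sequences are those of RefSeq (GRCm38.p6). Alternatives tried were the block, the arrays in the fit, the offset, the scaling, the filter, the choice of probe set, a prior with trend and each pair left out.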

Additional observations from a re-analysis of the deposited data

How the results depend on the processing

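In the 25-array fit 7 genes were higher and 82 lower under CLA. The counts moved most with the arrays and the block: 267 and 572 with the 6 arrays of 24 h alone, 195 and 551 with the 14 arrays of 12 and 24 h, and 0 and 3 with no replicate block (Apmap, Camp and Hdhd3). They were 2 and 23 with an offset of 1, 3 and 46 with 2% trimmed mean scaling and 1 and 8 with no filter. The calls with an offset of 64, with values as deposited, with a filter at the 75th percentile, with the median of probe sets and with a prior trend stayed within 1.5 times, at 5 to 9 higher and 66 to 108 lower. Leaving out 1 pair gave 0 to 2 higher and 4 to 29 lower genes in the 25-array fit and 13 to 199 and 89 to 431 in the 14-array fit, an alternative added after seeing the data; a fit with fewer arrays has fewer residual degrees of freedom, and other causes were not tested. For the 24 h effect minus the 12 h effect 1 gene, Prrg3, passed with an offset of 1 (adjusted p = 0.0454) and 0 passed in every other setting run. Of 66 named genes 2 changed sign: Trib3 (-0.16 as reported) differed by 0.0258 with an offset of 1 and by -0.92 to 0.30 when 1 pair was left out, above 0 without pair 2 and without pair 3 (0.15), and Ddit3 (0.28 as reported) by -0.15 to 0.56, below 0 without pair 1. Neither passed in any setting run. The list medians of the prostaglandin, autophagy, endothelial and endoplasmic reticulum chaperone lists changed sign in at least 1 setting, and the other 43 kept theirs. The median of all genes moved by less than 0.1 in every setting. The number of arrays limits the precision, and dim genes near the floor of 0 have compressed differences.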

Other observations

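Other genes past the threshold in the 25-array fit, chosen after their values were seen, belong to groups not described above. Of the apolipoproteins of the C group beside Apoc1, Apoc3 had 1.96, 26.02 and 11.9 under CLA, against 28.7, 231 and 94.2 under LA, and fell with a difference of -1.51 ± 0.31 (adjusted p = 0.0486 in the 25-array fit and 0.00156 in the 14-array fit). Apoc4 was listed at 0 in all 3 CLA arrays and at 66.5, 87.02 and 61.4 in the LA arrays, and also passed (adjusted p = 0.0133 in the 25-array fit and 0.000108 in the 14-array fit). The receptor that Mrap serves was lower with it: Mc2r, the receptor for ACTH, had 44.3, 58.5 and 34.2 under CLA, against 161, 322 and 109 under LA, and fell with a difference of -1.47 ± 0.27 (adjusted p = 0.0337 in the 25-array fit and 0.00246 in the 14-array fit). Tmem120a, the paralogue of Tmem120b, had 378, 354 and 157 under CLA, against 917, 1009 and 557 under LA, and fell with a difference of -1.43 ± 0.14 (adjusted p = 0.00096 in the 25-array fit and 0.000206 in the 14-array fit). Camp, which encodes the antimicrobial peptide cathelicidin, had 60.2, 19.8 and 14.7 under CLA, against 244, 140.2 and 103 under LA, and fell with a difference of -1.62 ± 0.16 (adjusted p = 0.00096 in the 25-array fit and 0.000124 in the 14-array fit). None of these 5 genes had an overlap between CLA and LA arrays.

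Egln3, a prolyl hydroxylase that acts on HIF, had 64.4, 185 and 193 under CLA, against 151, 872 and 585 under LA, and fell with a difference of -1.48 ± 0.26 (adjusted p = 0.0267 in the 25-array fit and 0.00235 in the 14-array fit), with an overlap between the groups. Aoc3, an amine oxidase of the adipocyte surface, had 573, 232 and 248 under CLA, against 1161, 975 and 683 under LA, and fell with a difference of -1.42 ± 0.25 (adjusted p = 0.0267 in the 25-array fit and 0.00102 in the 14-array fit). Cdo1, cysteine dioxygenase, had 356, 621 and 356 under CLA, against 1072, 1467 and 869 under LA, and fell with a difference of -1.31 ± 0.21 (adjusted p = 0.0159 in the 25-array fit and 0.000227 in the 14-array fit). Hs3st2, a sulfotransferase of heparan sulfate, had 379.7, 428 and 386 under CLA, against 184, 169 and 142 under LA, and rose in the 14-array fit (1.13 ± 0.28, adjusted p = 0.00725, against 0.104). Its difference at 12 h was -0.63, and the test of the 24 h effect against the 12 h effect had an unadjusted p of 0.000397 and an adjusted p of 1.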
